A study of Mus musculus with 9 samples.

Results

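The genes described here are 47 ligands, receptors, Smads and close regulators of the transforming growth factor beta (TGF-beta) and bone morphogenetic protein (BMP) pathway, followed over the RNA of injured mouse spinal cord. They were taken from a list of gene symbols that was chosen with earlier results of these data known. Each symbol was matched to 1 Ensembl identifier among the 52550 in the deposited count table. All 47 lay among the 18699 genes with enough counts to be tested. By role they were 3 TGF-beta ligands, 6 BMP ligands, 5 activins and growth differentiation factors, 4 latent TGF-beta binding proteins, 4 extracellular antagonists, 6 type I receptors, 4 type II receptors, 2 co-receptors, 8 Smads and 5 target genes.

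The RNA came from 9 adult female C57BL/6N mice, 3 per group, killed 7 days after surgery. The Sham mice had a laminectomy only. The SCI mice had a contusion of the thoracic cord and were then given the vehicle DMSO by intraperitoneal injection, and the SCI+FIPI mice had the same contusion and were given FIPI, an inhibitor of phospholipase D, by the same route, every day until they were killed. No injection is stated for the Sham mice, so the injury and the vehicle cannot be told apart in a comparison with Sham. The tissue was a short piece of cord around the centre of the injury, and the values are those of all its cells together. In such bulk tissue, fewer cells of a type and less RNA per cell cannot be told apart.

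The total count per mouse lay between 20806000 and 24582377. Hox genes of the thoracic cord and neuron markers were present in every mouse. Some Sham 1 values of genes of the meninges and connective tissue, such as the collagen gene Col3a1, were low (42.1, 236 and 235 CPM in the Sham mice). Fibroblast and pericyte markers differed less, with sums of 275, 398 and 354 CPM in these mice. Among the SCI+FIPI mice, Schwann cell and marrow genes were lowest in SCI+FIPI 1. The Schwann cell markers had sums of 264, 789 and 754 CPM there, and the marrow and blood markers 83.9, 304 and 343 CPM. Ngp, a granule protein of developing neutrophils, measured 6.84, 40.4 and 33.2 CPM in the SCI+FIPI mice. The Schwann cell sums of Sham 1 and Sham 3 (220 and 251 CPM) were lower still. CPM is the count of a gene relative to the total count of the mouse after TMM scaling, and serves to compare 1 gene between mice. FPKM is that value per kilobase of exon and serves to compare genes.

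TGF-beta is secreted in a latent complex, bound to a latent TGF-beta binding protein, and is set free at the cell surface or in the matrix. Most ligands of the family join type II and type I receptors, which are kinases. TGF-beta and activin receptors phosphorylate Smad2 and Smad3, BMP receptors phosphorylate Smad1, Smad5 and Smad9 (also called Smad8), and both kinds of Smad enter the nucleus with Smad4, while Smad6 and Smad7 inhibit the pathway. In the injured cord the TGF-beta branch is known for its part in the scar and in the matrix, and the BMP branch for its part in the fate and reactivity of glia, where the Id genes are among its best known targets.

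Smads bind short motifs, AGAC or its complement GTCT for Smad3 and Smad4, and a GC-rich element that holds GGCGCC for the BMP branch. The letters AGAC, GTCT and GGCGCC were searched on both strands of the 250 bases before each start of transcription in RefSeq (GRCm38.p6), where the motifs cannot overlap each other. RefSeq windows were at hand for 35 of the 47 genes, 44 windows in all. AGAC or GTCT stood in 37 of these windows (84.1%) and in 82.9% of all 32851 windows. GGCGCC stood in 12 of them (27.3%) and in 9.59% of all windows. A match is a run of letters and not a measured binding site, and several windows belong to the same gene. The windows of 4 genes are given below, 5′ to 3′ on the strand of the gene and with the searched letters in capitals. Tgfb1 and Tgfb2 are shown because they were the TGF-beta ligands with the greatest and the smallest difference between SCI and Sham, and Smad9 and Id4 because they were BMP-branch genes that lay higher in every SCI+FIPI mouse than in every SCI mouse.
Tgfb1 (chr7:25686752-25687001, plus strand): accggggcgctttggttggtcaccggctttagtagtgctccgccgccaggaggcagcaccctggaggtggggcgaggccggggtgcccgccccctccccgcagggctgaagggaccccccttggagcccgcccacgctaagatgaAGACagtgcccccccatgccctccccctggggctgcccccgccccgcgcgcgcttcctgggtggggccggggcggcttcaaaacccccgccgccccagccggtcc
Tgfb2 (chr1:186705990-186706239, minus strand): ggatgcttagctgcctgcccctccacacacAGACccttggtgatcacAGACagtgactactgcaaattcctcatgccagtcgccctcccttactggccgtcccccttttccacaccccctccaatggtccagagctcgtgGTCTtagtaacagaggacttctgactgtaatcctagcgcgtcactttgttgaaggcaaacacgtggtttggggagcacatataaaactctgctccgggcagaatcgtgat
Smad9 (chr3:54755332-54755581, plus strand): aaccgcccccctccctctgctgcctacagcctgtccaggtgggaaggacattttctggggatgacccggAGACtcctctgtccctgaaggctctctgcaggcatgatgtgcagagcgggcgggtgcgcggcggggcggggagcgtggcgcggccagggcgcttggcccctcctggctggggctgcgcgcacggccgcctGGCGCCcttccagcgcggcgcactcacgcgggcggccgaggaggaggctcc
Id4 (chr13:48260866-48261115, plus strand): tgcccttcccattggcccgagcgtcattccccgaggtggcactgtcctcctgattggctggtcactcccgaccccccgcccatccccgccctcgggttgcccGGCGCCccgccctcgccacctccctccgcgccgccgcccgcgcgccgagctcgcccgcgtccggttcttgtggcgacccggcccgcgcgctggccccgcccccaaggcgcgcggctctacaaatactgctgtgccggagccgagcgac
The Tgfb1 window held AGAC or GTCT 1 time, the Tgfb2 window 3 times and the Smad9 window 1 time, while the Id4 window held neither. GGCGCC occurred 1 time each in the Smad9 and Id4 windows and in neither ligand window.

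The first comparison, of SCI with Sham, asks which genes of the pathway differed in the cord 7 days after the contusion. A gene was called higher or lower where its absolute log2 fold change was at least 0.5 and its adjusted p was under 0.05, by the quasi-likelihood test of edgeR, with the p-values of all 18699 genes adjusted together after Benjamini and Hochberg. Of the 47 genes, 31 (66.0%) were called, against 47% of all genes tested. In the direction of higher values 24 (51.1%) were called, against 24.4% of all genes, and in the direction of lower values 7 (14.9%), against 22.5%. Every SCI mouse lay above or below every Sham mouse for 41 genes (87.2%), which held for 70.5% of all genes. The median log2 fold change was 0.56 over the 47 genes and -0.0032 over all genes. Without Sham 1, the mouse low in some genes of connective tissue, 28 of the 47 genes were called, 22 higher and 6 lower. Over all genes that fit called 8539, of which 4469 were higher and 4070 lower. With 3 mice against 3, an exact permutation test of a single gene cannot give a two-sided p under 0.1.

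**Figure D1:**
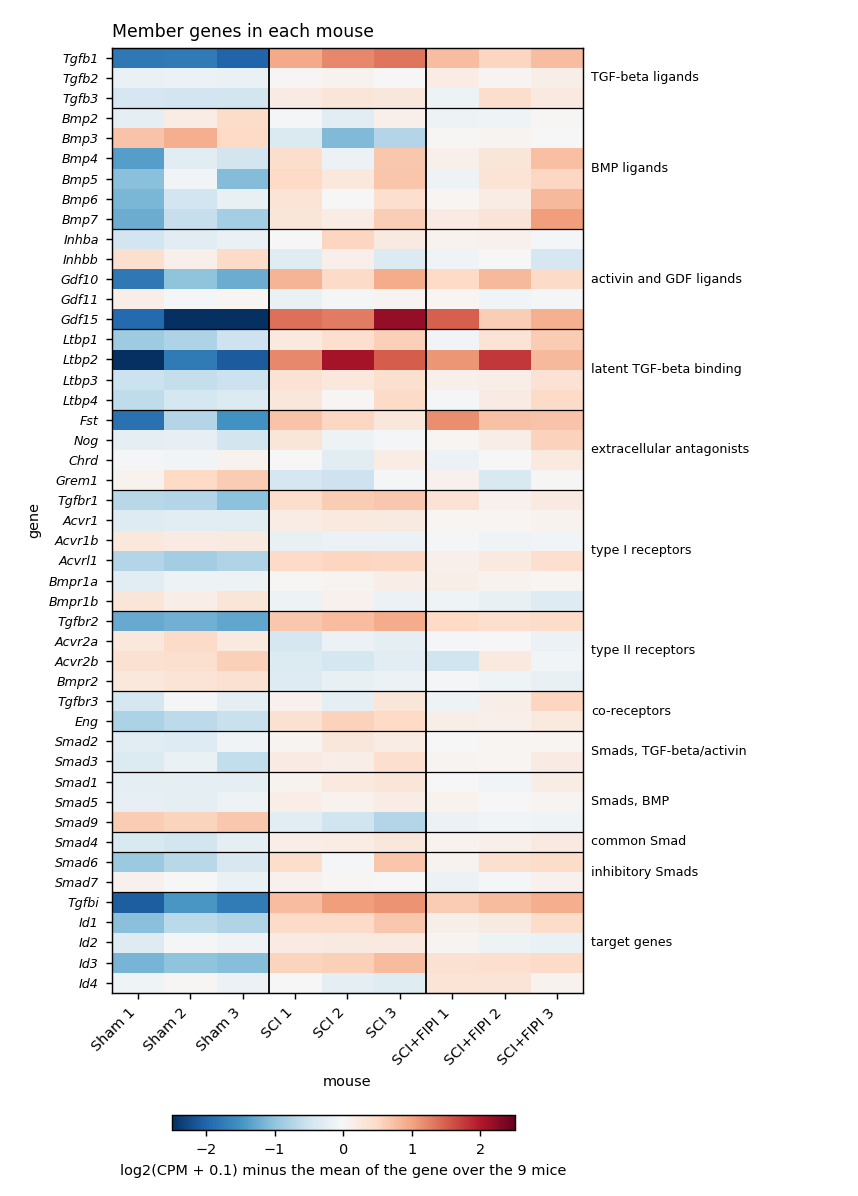
Expression of the 47 genes in each of the 9 mice, as log2(CPM + 0.1) minus the mean of that gene over the 9 mice (rows, genes by role; columns, mice). Red is above and blue below the mean of the gene, and values past 2.5 in either direction take the end colour of the scale. The rows of Tgfb1, Tgfbr2, Tgfbi and Id3 are blue in the 3 Sham mice and red in the other 6, while that of Smad9 runs the other way. The row of Bmp3 is red in Sham, blue in SCI and near the mean of the gene in SCI+FIPI.

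Of the TGF-beta ligands, Tgfb1 and Tgfb3 rose after SCI and Tgfb2 differed least. Tgfb1, the ligand made by many immune and glial cells (chr7:25687002-25705077, plus strand, GRCm38), measured 17, 17.2 and 14.8 CPM in the Sham mice, 113, 137 and 151 CPM in the SCI mice and 101, 85.5 and 101 CPM in the SCI+FIPI mice. Each SCI and SCI+FIPI value was above each Sham value, and the SCI and SCI+FIPI mice did not overlap either. The gene was 8.18-fold higher in SCI than in Sham (log2 fold change 3.03 ± 0.12 (SE), edgeR adjusted p = 7.4e-10). Tgfb3 (chr12:86056745-86079041, minus strand) measured 33.8, 32.5 and 32.9 CPM in the Sham mice, 52.2, 55.5 and 55.1 CPM in the SCI mice and 41.4, 61.2 and 53.9 CPM in the SCI+FIPI mice, with the Sham mice below all others and the 3 SCI mice inside the range of the SCI+FIPI mice. It was 1.64-fold higher in SCI (log2 fold change 0.71 ± 0.11 (SE), edgeR adjusted p = 1.0e-04). Tgfb2 (chr1:186622792-186705989, minus strand) measured 24.9, 25.3 and 25.2 CPM in the Sham mice, 28.7, 29.9 and 27.8 CPM in the SCI mice and 31.9, 29.3 and 31 CPM in the SCI+FIPI mice. Its SCI values were all above its Sham values, but the difference was under the limit on size (log2 fold change 0.20 ± 0.07 (SE), edgeR adjusted p = 0.021). Tgfb2 also missed the limit on adjusted p in 3 of 18 other fits (edgeR adjusted p up to 0.10).

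The make-up of the 3 TGF-beta transcripts differed between the groups. Per length of exon, Tgfb1 gave 19.1, 19.6 and 17.2% of their summed FPKM in the Sham mice, 52.4, 55.7 and 58.6% in the SCI mice and 53, 42.3 and 48.6% in the SCI+FIPI mice. Tgfb3 gave 56.5, 55.3 and 57.2% in Sham and 36, 33.7 and 32% in SCI. The leading TGF-beta transcript was thus Tgfb3 in each Sham mouse and Tgfb1 in each SCI mouse, while SCI+FIPI 2 had Tgfb1 and Tgfb3 at similar shares (42.3% and 45.1%).

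Of the 6 BMP ligands, Bmp4, Bmp5 and Bmp7 rose, Bmp3 fell, and Bmp2 and Bmp6 were not called. The share called was 66.7%, against 47% of all genes tested. Bmp7 (chr2:172868012-172940321, minus strand), a ligand known to act on glial precursors, measured 9.25, 14.8 and 12.1 CPM in the Sham mice, 27.3, 25.1 and 33.6 CPM in the SCI mice and 25.6, 27.5 and 45.8 CPM in the SCI+FIPI mice. It was lowest in the 3 Sham mice and highest in SCI+FIPI 3, and was 2.37-fold higher in SCI (log2 fold change 1.25 ± 0.28 (SE), edgeR adjusted p = 0.005). Bmp5 (chr9:75775364-75900310, plus strand) measured 1.34, 2.72 and 1.3 CPM in the Sham mice, 4.11, 3.47 and 4.73 CPM in the SCI mice and 2.64, 3.69 and 4.15 CPM in the SCI+FIPI mice. Its Sham and SCI mice did not overlap (log2 fold change 1.19 ± 0.28 (SE), edgeR adjusted p = 0.0016). Of its exonic bases, 46.7% are shared with Gm26903 on the opposite strand, and since it is not stated whether the reads were counted by strand, reads of these genes cannot be told apart.

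Bmp3 (chr5:98854415-98884396, plus strand), which unlike the other BMPs is known as an antagonist of BMP signalling, was the BMP ligand that was lower after SCI. It measured 7.38, 8.51 and 6.39 CPM in the Sham mice, 3.48, 2.03 and 2.66 CPM in the SCI mice and 4.56, 4.75 and 4.49 CPM in the SCI+FIPI mice. The SCI mice were lowest, the Sham mice highest and the SCI+FIPI mice between them with no overlap. Bmp3 was 2.73-fold lower in SCI than in Sham (log2 fold change -1.45 ± 0.19 (SE), edgeR adjusted p = 8.1e-06). Bmp4 was 2-fold higher (log2 fold change 1.00 ± 0.33 (SE), edgeR adjusted p = 0.031), a call that was lost in 5 of the 18 other fits. Its values were 4.98, 10.7 and 9.44 CPM in the Sham mice, 17.7, 11.8 and 21 CPM in the SCI mice and 14.2, 16.1 and 22.2 CPM in the SCI+FIPI mice, with Sham 1 the lowest, and without that mouse its log2 fold change was 0.74 (edgeR adjusted p = 0.042). Bmp6, the most abundant BMP ligand by FPKM in every mouse, had a log2 difference of 0.81 (edgeR adjusted p = 0.051), and Bmp2 one of -0.23 (edgeR adjusted p = 0.29).

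Among the activins and growth differentiation factors, 3 of 5 rose and 1 fell (80% called, against 47% of all genes tested). Gdf15 (chr8:70629393-70632456, minus strand), a ligand known to be induced by cell stress, showed the greatest log2 fold change of the 47 genes. It measured 0.91, 0.346 and 0.46 CPM in the Sham mice, 10.02, 9.47 and 17.7 CPM in the SCI mice and 10.8, 5.85 and 7.05 CPM in the SCI+FIPI mice, from counts of only 19, 8 and 11 in the Sham mice. All injured mice were far above the Sham mice, and SCI 3 was the highest. Gdf15 was 21.9-fold higher in SCI than in Sham (log2 fold change 4.45 ± 0.44 (SE), edgeR adjusted p = 1.6e-05). Gdf10, a ligand close to Bmp3 in sequence (chr14:33923587-33937983, plus strand), measured 4.65, 8.12 and 6.85 CPM in the Sham mice, 29.5, 23 and 31.3 CPM in the SCI mice and 23.2, 28.9 and 22.8 CPM in the SCI+FIPI mice. It was 4.25-fold higher in SCI (log2 fold change 2.09 ± 0.19 (SE), edgeR adjusted p = 3.8e-06), with no overlap of Sham and SCI. Without Sham 1 its log2 fold change was 1.90 (edgeR adjusted p = 7.6e-07).

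Inhba and Inhbb encode the beta subunits of the activins and moved in opposite directions. Inhba measured 11.8, 13.8 and 14.8 CPM in the Sham mice, 16.4, 24.2 and 19.5 CPM in the SCI mice and 17.7, 17.9 and 16.1 CPM in the SCI+FIPI mice. All its SCI values were above its Sham values (log2 fold change 0.57 ± 0.13 (SE), edgeR adjusted p = 0.0013), and the call was lost without Sham 1 or without SCI 2. Inhbb was lower by a log2 difference of -0.50 (edgeR adjusted p = 0.0089), a value so near the limit on size that the call was lost in 9 of 18 other fits. Gdf11, the ligand nearest to myostatin, stayed between 44.7 and 56.2 CPM in the 9 mice (log2 fold change -0.11 ± 0.07 (SE), edgeR adjusted p = 0.22).

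All 4 latent TGF-beta binding proteins, a family of matrix proteins, rose after SCI, where 24.4% of all genes were called higher. Ltbp2, which unlike the other members is not known to bind latent TGF-beta (chr12:84783212-84876532, minus strand), measured 0.24, 2.38 and 1.88 CPM in the Sham mice, 19.4, 35.4 and 24 CPM in the SCI mice and 18, 28.5 and 14.6 CPM in the SCI+FIPI mice. Sham 1 was the lowest mouse, with a count of 5 against 55 and 45 in Sham 2 and Sham 3, and all injured mice were far higher. Ltbp2 was 17.1-fold higher in SCI than in Sham (log2 fold change 4.09 ± 0.58 (SE), edgeR adjusted p = 0.00067), and without Sham 1 its log2 fold change was 3.62 (edgeR adjusted p = 0.00065). Ltbp1 (chr17:75005568-75392512, plus strand) measured 14.7, 16.1 and 19.1 CPM in the Sham mice, 32.7, 36.9 and 41.6 CPM in the SCI mice and 26.3, 34.8 and 42.8 CPM in the SCI+FIPI mice. Its Sham mice were below all others, and it was 2.22-fold higher in SCI (log2 fold change 1.15 ± 0.18 (SE), edgeR adjusted p = 0.00029). Ltbp3 and Ltbp4 were the most abundant of the family by FPKM and rose less, with log2 fold changes of 0.90 (edgeR adjusted p = 3.2e-08) and 0.74 (edgeR adjusted p = 0.0034). Ltbp3 gave 49.7, 45 and 43.9% of the FPKM of the family in Sham and 47.2, 47.3 and 44% in SCI. Ltbp4 gave 46.1, 49.9 and 50.7% in Sham and 44.6, 40 and 46.4% in SCI. It was ahead of Ltbp3 in Sham 2, Sham 3, SCI 3, SCI+FIPI 2 and SCI+FIPI 3.

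Of the 4 extracellular antagonists 1 rose, 1 fell and 2 were not called. The share called (50%) was near the 47% of all genes tested. Fst, follistatin, which binds activin (chr13:114452290-114458951, minus strand), rose from a very low level and measured 0.144, 0.432 and 0.209 CPM in the Sham mice, 1.34, 1.16 and 0.97 CPM in the SCI mice and 1.88, 1.36 and 1.34 CPM in the SCI+FIPI mice. These values rest on counts of 3, 10 and 5 in Sham and 32, 28 and 23 in SCI. The groups did not overlap, and Fst was 4.31-fold higher in SCI (log2 fold change 2.11 ± 0.40 (SE), edgeR adjusted p = 0.00026). Grem1, gremlin, which binds BMPs (chr2:113746164-113758646, minus strand), measured 2.2, 2.94 and 3.26 CPM in the Sham mice, 1.51, 1.41 and 2.03 CPM in the SCI mice and 2.24, 1.57 and 2.1 CPM in the SCI+FIPI mice. All SCI values were below the Sham values (log2 fold change -0.77 ± 0.24 (SE), edgeR adjusted p = 0.01). The BMP antagonists Nog and Chrd were not called, with log2 differences of 0.37 (edgeR adjusted p = 0.073) for Nog, noggin, and -0.0046 (edgeR adjusted p = 0.98) for Chrd, chordin.

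The type I receptors of TGF-beta and of endothelial cells rose most among the 6 type I receptors. Tgfbr1, the type I receptor of TGF-beta (chr4:47353222-47414931, plus strand), measured 54.7, 52.8 and 43.3 CPM in the Sham mice, 120.2, 137 and 141 CPM in the SCI mice and 114, 95.4 and 103 CPM in the SCI+FIPI mice. The Sham mice were lowest and the SCI mice highest, with no overlap among the 3 groups, and Tgfbr1 was 2.65-fold higher in SCI than in Sham (log2 fold change 1.40 ± 0.10 (SE), edgeR adjusted p = 4.7e-08). Acvrl1, also called ALK1 and best known in endothelium (chr15:101128522-101145336, plus strand), measured 21, 19.3 and 20.9 CPM in the Sham mice, 48.7, 51.1 and 49.99 CPM in the SCI mice and 38.3, 41.8 and 47.2 CPM in the SCI+FIPI mice. It was 2.45-fold higher in SCI with no overlap (log2 fold change 1.29 ± 0.08 (SE), edgeR adjusted p = 3.9e-09).

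Acvr1, also called ALK2, a type I receptor of BMPs, measured 24.6, 25.7 and 25.4 CPM in the Sham mice, 34.9, 36.4 and 35.8 CPM in the SCI mice and 32, 31.8 and 32.5 CPM in the SCI+FIPI mice. The 3 groups were apart from each other, but its difference lay at the limit on size (log2 fold change 0.50 ± 0.06 (SE), edgeR adjusted p = 6.9e-06), and the call was lost in 4 of 18 other fits. The other type I receptors were under that limit. Bmpr1a, the main type I receptor of BMPs, had a log2 difference of 0.26 (edgeR adjusted p = 0.0019). Bmpr1b, a second BMP receptor, was at -0.31 (edgeR adjusted p = 0.0063), and Acvr1b, the activin receptor ALK4, at -0.39 (edgeR adjusted p = 1.3e-05). Bmpr1b missed the limit on adjusted p with offsets for GC content and length, with or without the replicate block (edgeR adjusted p up to 0.096). For each of the 6 genes all SCI mice were above or all below the Sham mice, which held for 70.5% of all genes.

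All 4 type II receptors were called, Tgfbr2 as higher and the other 3 as lower, against 47% called of all genes tested. Tgfbr2, the type II receptor that binds TGF-beta (chr9:116084293-116175360, minus strand), measured 51.2, 52.7 and 49.5 CPM in the Sham mice, 195, 209 and 234 CPM in the SCI mice and 173, 163 and 169 CPM in the SCI+FIPI mice. The 3 groups did not overlap, with SCI the highest, and Tgfbr2 was 4.16-fold higher in SCI than in Sham (log2 fold change 2.06 ± 0.07 (SE), edgeR adjusted p = 3.6e-11). Acvr2b, an activin type II receptor (chr9:119402118-119434995, plus strand), measured 4.65, 4.75 and 5.43 CPM in the Sham mice, 2.81, 2.6 and 2.91 CPM in the SCI mice and 2.5, 4.24 and 3.4 CPM in the SCI+FIPI mice. Its SCI mice were all below its Sham mice (log2 fold change -0.83 ± 0.19 (SE), edgeR adjusted p = 0.0014). Bmpr2, the type II receptor of BMPs, was at 125, 131 and 136 CPM in Sham and 82.7, 91.1 and 93.8 CPM in SCI (log2 fold change -0.55 ± 0.06 (SE), edgeR adjusted p = 2.1e-06). Acvr2a, the other activin type II receptor, was at 20.8, 24.2 and 20.6 CPM in Sham and 13, 15.7 and 14.6 CPM in SCI (log2 fold change -0.60 ± 0.10 (SE), edgeR adjusted p = 8.4e-05). With offsets for GC content and exonic length, Bmpr2 was at a log2 difference of -0.13 (edgeR adjusted p = 0.044) and Acvr2a at -0.42 (edgeR adjusted p = 0.00087), and neither was called.

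In FPKM, the TGF-beta receptor Tgfbr2 gave 34.6, 33.5 and 32.5% of the summed level of the 4 type II receptors in the Sham mice and 75.8, 75 and 77% in the SCI mice. Bmpr2 gave 38.5, 38 and 40.6% in Sham and 14.6, 14.9 and 14.1% in SCI. In each Sham mouse Bmpr2 was thus the most abundant of the 4 transcripts and in each SCI and SCI+FIPI mouse it was Tgfbr2. Among the co-receptors, Eng, endoglin, an endothelial co-receptor (chr2:32646595-32682669, plus strand), measured 37.7, 41.6 and 44.5 CPM in the Sham mice, 84.7, 97.5 and 92.4 CPM in the SCI mice and 72, 71.4 and 77.7 CPM in the SCI+FIPI mice. The Sham, SCI+FIPI and SCI mice followed each other in that order with no overlap (log2 fold change 1.15 ± 0.07 (SE), edgeR adjusted p = 5.0e-09). Tgfbr3, betaglycan, which presents TGF-beta to its receptors, had overlapping Sham and SCI mice (log2 fold change 0.30 ± 0.20 (SE), edgeR adjusted p = 0.23).

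Smad4 and the Smads of the TGF-beta branch were higher after SCI by small amounts, while the BMP-branch Smad genes differed among themselves. Smad3 (chr9:63646767-63757994, minus strand) measured 32.9, 37.1 and 27.3 CPM in the Sham mice, 48.5, 47.2 and 56 CPM in the SCI mice and 44.1, 43.4 and 48.2 CPM in the SCI+FIPI mice. All SCI values were above all Sham values, and Smad3 was 1.56-fold higher (log2 fold change 0.64 ± 0.10 (SE), edgeR adjusted p = 8.8e-05). Smad4, the common partner of both branches, measured 33.3, 31.5 and 37.1 CPM in the Sham mice, 48.5, 49.3 and 52.7 CPM in the SCI mice and 46.2, 47 and 50.6 CPM in the SCI+FIPI mice. Its Sham mice were all lowest (log2 fold change 0.56 ± 0.07 (SE), edgeR adjusted p = 7.8e-06), and with upper-quartile factors its log2 difference was 0.50, just under the limit. Smad2 was at 0.40 (edgeR adjusted p = 0.001), under the limit on size, with no overlap of the groups.

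Smad9, a Smad of the BMP branch (chr3:54755582-54801257, plus strand), fell after SCI. It measured 45.5, 43.1 and 46.7 CPM in the Sham mice, 24.4, 20.7 and 17.6 CPM in the SCI mice and 26.7, 27.9 and 27.3 CPM in the SCI+FIPI mice. The Sham mice were highest, the SCI mice lowest and the SCI+FIPI mice between them without overlap, and Smad9 was 2.16-fold lower in SCI than in Sham (log2 fold change -1.11 ± 0.10 (SE), edgeR adjusted p = 1.1e-07). Smad1 and Smad5, which carry the same signal, had log2 differences of 0.45 (edgeR adjusted p = 0.00015) and 0.34 (edgeR adjusted p = 9.2e-05), under the limit on size and upward in every SCI mouse. The summed FPKM of these 3 Smads was 22.6, 21.9 and 23.3 in Sham and 22.6, 22 and 22.5 in SCI. Within that sum the share of Smad9 was 37.5, 36.7 and 37.4% in Sham and 20.1, 17.5 and 14.6% in SCI.

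The inhibitory Smads, both of which are themselves induced by the pathway, differed from each other. Smad6, which mainly inhibits the BMP branch (chr9:63953076-64022059, minus strand), measured 4.26, 5.01 and 6.18 CPM in the Sham mice, 11.2, 7.98 and 13.3 CPM in the SCI mice and 8.76, 10.8 and 11.3 CPM in the SCI+FIPI mice. It was 2.09-fold higher in SCI with no overlap (log2 fold change 1.06 ± 0.19 (SE), edgeR adjusted p = 0.00026). Smad7, which inhibits both branches, had overlapping groups, with 71.1, 66.3 and 59.3 CPM in Sham and 71.7, 67.4 and 66.5 CPM in SCI (log2 fold change 0.06 ± 0.08 (SE), edgeR adjusted p = 0.49, 95% interval -0.10 to 0.23).

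Of the 5 target genes, Tgfbi, Id1 and Id3 rose, and Id2 and Id4 were not called (60% called higher, against 24.4% of all genes). Tgfbi, a matrix protein induced by TGF-beta (chr13:56609523-56639562, plus strand), measured 21.9, 33.3 and 27.4 CPM in the Sham mice, 156, 191 and 201 CPM in the SCI mice and 143, 159 and 172 CPM in the SCI+FIPI mice. All injured mice were above the Sham mice, and Tgfbi was 6.62-fold higher in SCI (log2 fold change 2.73 ± 0.16 (SE), edgeR adjusted p = 4.3e-07). The Id genes encode inhibitors of helix-loop-helix factors. Id3 (chr4:136143497-136145755, plus strand) measured 47.5, 53.2 and 50.9 CPM in the Sham mice, 157, 161 and 185 CPM in the SCI mice and 138, 143 and 147 CPM in the SCI+FIPI mice, with no overlap among the 3 groups, and was 3.31-fold higher in SCI (log2 fold change 1.73 ± 0.07 (SE), edgeR adjusted p = 1.1e-10). Id1 (chr2:152736251-152737410, plus strand) measured 12.7, 16.5 and 15.7 CPM in the Sham mice, 36.6, 37 and 42.2 CPM in the SCI mice and 29.1, 30.6 and 36.3 CPM in the SCI+FIPI mice. Its Sham mice were lowest and its SCI mice highest, again without overlap (log2 fold change 1.36 ± 0.11 (SE), edgeR adjusted p = 6.3e-08).

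Id2 (chr12:25093799-25097140, minus strand) measured 69.1, 83.4 and 81.3 CPM in the Sham mice, 100.1, 102 and 103 CPM in the SCI mice and 90.7, 79.2 and 77.4 CPM in the SCI+FIPI mice. Its SCI mice were above all others, and the Sham and SCI+FIPI mice overlapped, but the difference between SCI and Sham was under the limit on size (log2 fold change 0.38 ± 0.08 (SE), edgeR adjusted p = 0.00047). Id4, which BMPs induce and which is known to hold neural stem cells at rest (chr13:48261228-48266026, plus strand), measured 106, 117 and 104 CPM in the Sham mice, 114, 98.3 and 92.3 CPM in the SCI mice and 145, 143 and 121 CPM in the SCI+FIPI mice. Its Sham and SCI mice overlapped (log2 fold change -0.10 ± 0.09 (SE), edgeR adjusted p = 0.35). Per length of exon, Id2, Id3 and Id4 were near each other in Sham, at 32 ± 3.16, 28.2 ± 1.61 and 28.2 ± 1.81 FPKM (mean ± SD, n = 3), and were the most abundant of the 47 transcripts there. In SCI, Id3 led at 93.5 ± 8.49 FPKM, followed by Tgfbi at 48.4 ± 6.2, Id2 at 41.6 ± 0.564 and Id1 at 33.3 ± 2.69. Fst was the least abundant gene in each group, at 0.252 ± 0.0405 FPKM in SCI.

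**Figure D2:**
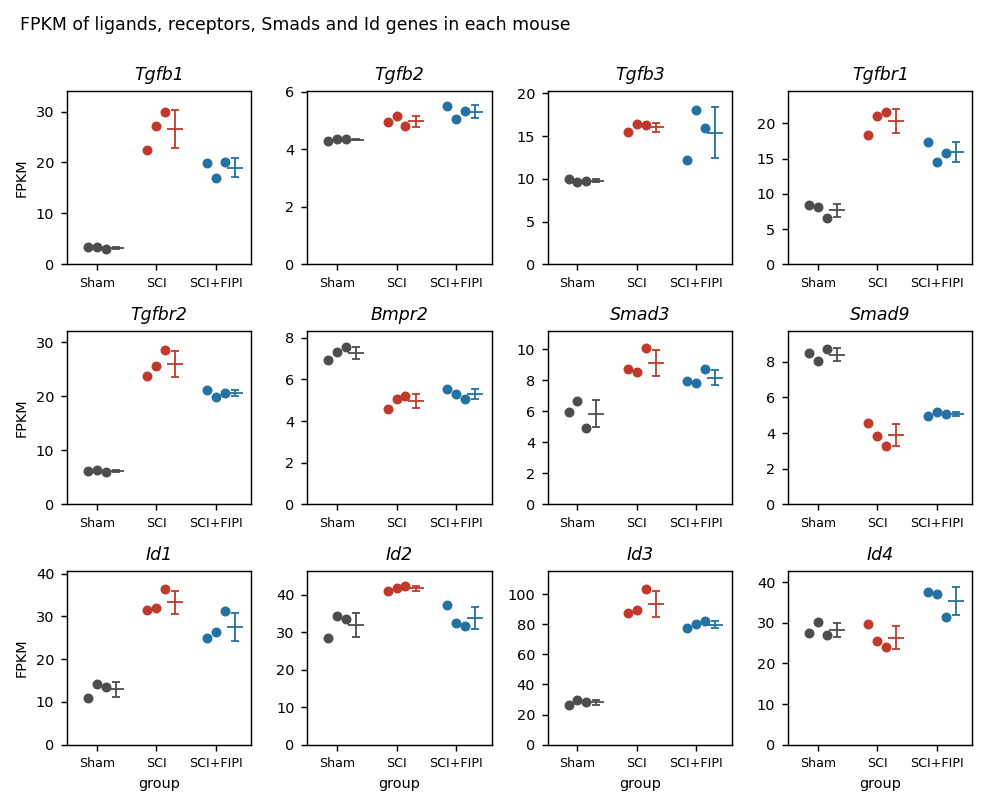
FPKM of 12 of the genes in each mouse (points, 3 per group; the bar beside them is the mean with its SD; each vertical axis starts at 0 and has its own range). Tgfb1, Tgfbr1, Tgfbr2, Id1 and Id3 are lowest in Sham and highest in SCI, Bmpr2 and Smad9 are highest in Sham, and Id4 is highest in SCI+FIPI.

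Another 88 genes of the pathway were looked up by list, of which 72 could be tested. After SCI 45 of the 72 (62.5%) were called, against 47% of all genes tested. Of these 38 (52.8%) were higher, against 24.4% of all genes, and 7 (9.72%) lower, against 22.5%. The list of TGF-beta target genes stood highest, with all 14 of its tested genes called higher and a median log2 fold change of 2.91. These include the collagen genes Col1a1 at 4.73 (edgeR adjusted p = 6.3e-05), Col3a1 at 3.84 (edgeR adjusted p = 0.0018) and Col1a2 at 3.78 (edgeR adjusted p = 0.00013), and the matrix protein Postn at 4.43 (edgeR adjusted p = 0.00016). Col1a1 measured 90.5, 244 and 209 CPM in the Sham mice, 3897, 5673 and 4862 CPM in the SCI mice and 3441, 4732 and 3566 CPM in the SCI+FIPI mice, with Sham 1 lowest and all injured mice far above. Many of these genes are also known from fibroblasts and vessel walls. The list shares no gene with the fibroblast and pericyte markers given further on, whose 8 genes were likewise all called higher, with a median of 2.57. The part of such cells in the rise of the TGF-beta target genes was not tested. Of 7 tested BMP targets 4 were called higher, with a median of 0.62, among them Atoh8 at 1.42 (edgeR adjusted p = 2.3e-06) and Hes1 at 1.15 (edgeR adjusted p = 7.5e-06).

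Nearer to the ligand, Nrros, which holds latent TGF-beta1 on microglia, measured 7.23, 7.08 and 6.18 CPM in the Sham mice, 54.5, 64.8 and 76.4 CPM in the SCI mice and 48.2, 40.9 and 45.4 CPM in the SCI+FIPI mice. It was 9.55-fold higher in SCI than in Sham (log2 fold change 3.26 ± 0.13 (SE), edgeR adjusted p = 4.4e-10). Of the 9 tested genes of activation and processing, 4 (44.4%) were called higher and 1 (11.1%), Pcsk6, lower. The higher genes included Thbs1, thrombospondin 1, at 3.36 (edgeR adjusted p = 0.00048) and the integrin subunit gene Itgb5 at 2.19 (edgeR adjusted p = 5.2e-11). The list of other ligands held 19 genes, of which 12 had too few counts to test. Its Gdf3 rose most, at 0.192, 0.389 and 0.0418 CPM in Sham and 7.25, 8.48 and 7.72 CPM in SCI (log2 fold change 5.21 ± 0.43 (SE), edgeR adjusted p = 5.9e-07), from counts of 4, 9 and 1 in the Sham mice. Other antagonists were called higher for 5 of 10 tested genes (50%) and lower for 1 (10%). Intracellular regulators were called higher for 4 of 15 (26.7%) and lower for 2 (13.3%). Over all genes tested 24.4% were called higher and 22.5% lower, so the intracellular regulators lay near the first share and under the second. Of the 7 genes called lower, the greatest differences were those of Acvr1c, the type I receptor ALK7, at -1.27 (edgeR adjusted p = 0.0017), Zfyve9, an anchor of Smad2 and Smad3, at -1.20 (edgeR adjusted p = 5.4e-09), Inha, the alpha subunit of the inhibins, at -0.83 (edgeR adjusted p = 8.0e-07), and Ppm1a, a phosphatase of Smads, at -0.82 (edgeR adjusted p = 5.7e-08). Of the exonic bases of Zfyve9, 10.9% are shared with a gene on the opposite strand.

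**Figure D3:**
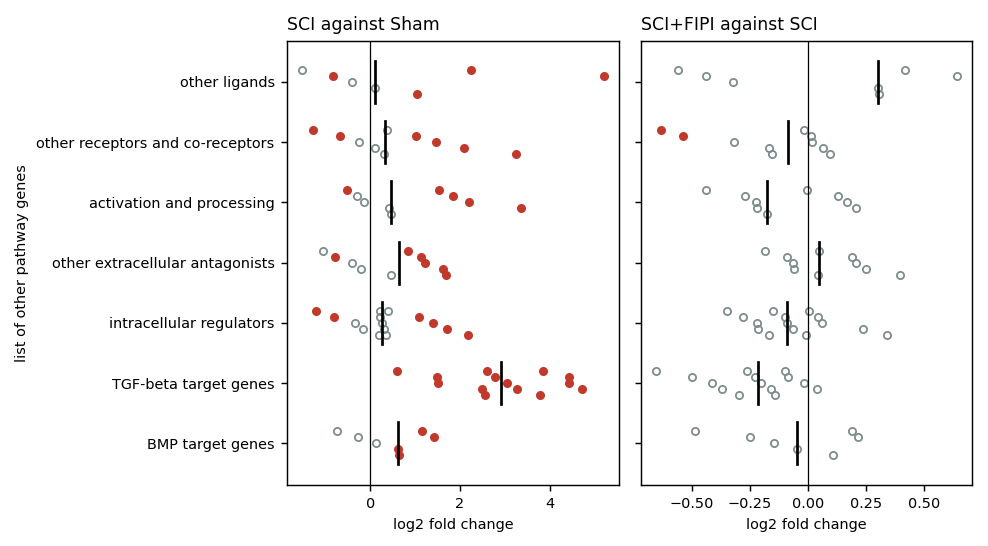
Log2 fold changes of the 72 tested pathway genes outside the 47 (each point is a gene, filled red where called; the black bar is the median of the list; the horizontal axes differ between the panels). Between SCI and Sham all 14 TGF-beta target genes lie on the higher side, and between SCI+FIPI and SCI all but 2 of the 72 points are open.

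The cell types of the tissue differed between the same groups. All 11 neuron markers were called lower in SCI than in Sham, and their summed level was 7214 to 8117 CPM in Sham and 2109.7 to 3085 CPM in SCI. Of 11 microglia and macrophage markers 10 were called higher, with sums of 342 to 453 CPM in Sham and 1783 to 2148 CPM in SCI, and P2ry12 was the exception. All 8 fibroblast and pericyte markers were called higher, with sums of 275 to 398 and 1258 to 1488 CPM, and 6 of 8 endothelial markers, with sums of 308 to 332 and 535 to 572 CPM. Of 8 astrocyte markers 3 were called higher and 2 lower, with sums of 9614 to 10085 CPM in Sham and 13009 to 14951 CPM in SCI, and of 8 oligodendrocyte markers 5 were called lower. The 5 Hox genes of the thoracic cord had sums of 510.3 to 523 CPM in Sham and 254 to 301 CPM in SCI, with 3 called lower. The 10 bone markers had sums of 17.1 to 20.1 CPM in Sham and 82.3 to 95.5 CPM in SCI, of which Col10a1, a collagen of growing cartilage, gave 65.9, 69.8 and 80.4 CPM in the SCI mice. Of the 8 bone markers tested 2, Col10a1 and Phex, were called higher and 1, Dmp1, lower. No marker of these lists was at 0 in every mouse. The part of these shifts in the differences of the 47 genes was not tested.

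The second comparison, of SCI+FIPI with SCI, asks what differed in injured cord under the phospholipase D inhibitor. Of the 47 genes 1 (2.13%) was called, Bmp3, against 3.06% of all genes tested (572 of 18699) and 2.36% in the higher direction, a share near that background. Bmp3 was at 4.56, 4.75 and 4.49 CPM in SCI+FIPI and at 3.48, 2.03 and 2.66 CPM in SCI. Each treated mouse was above each SCI mouse, by 1.69-fold on average (log2 fold change 0.76 ± 0.19 (SE), edgeR adjusted p = 0.026, 95% interval 0.34 to 1.17). The Bmp3 call did not last when SCI 2, SCI 3 or any single SCI+FIPI mouse was left out (log2 fold changes 0.58 to 0.77, edgeR adjusted p = 0.053 to 0.10). Without SCI+FIPI 1, the lowest of the SCI+FIPI mice in Schwann cell and marrow genes, the 1 gene called was Tgfb1, lower at a log2 fold change of -0.52 (edgeR adjusted p = 0.029). The median log2 fold change was -0.07 over the 47 genes and -0.0014 over all genes, with 18 of the 47 above 0 and 29 below.

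With the limit on adjusted p alone, 8 of the 47 genes passed (17%), against 9.63% of all genes. In the higher direction these were 3 genes (6.38%), against 6.04% of all genes, and in the lower direction 5 genes (10.6%), against 3.58%. The SCI and SCI+FIPI mice did not overlap for 15 of the 47 genes (31.9%), against 30.2% of all genes. Among the 5 lower genes were the TGF-beta ligand Tgfb1 and both of its receptors. Tgfb1 was 1.39-fold lower in SCI+FIPI than in SCI (log2 fold change -0.48 ± 0.10 (SE), edgeR adjusted p = 0.015, 95% interval -0.70 to -0.26), with 3 of 3 treated mice below the lowest SCI mouse. Tgfbr2 was 1.26-fold lower (log2 fold change -0.34 ± 0.07 (SE), edgeR adjusted p = 0.009) and Tgfbr1 1.28-fold lower (log2 fold change -0.35 ± 0.09 (SE), edgeR adjusted p = 0.035), each with no overlap of the groups.

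The other 2 lower genes were the co-receptor Eng (log2 fold change -0.31 ± 0.07 (SE), edgeR adjusted p = 0.016) and the target gene Id2 (log2 fold change -0.30 ± 0.08 (SE), edgeR adjusted p = 0.025), both with all treated mice below the SCI mice. The 3 higher genes were Bmp3, the BMP-branch Smad gene Smad9 (log2 fold change 0.38 ± 0.10 (SE), edgeR adjusted p = 0.025) and the BMP target Id4 (log2 fold change 0.42 ± 0.09 (SE), edgeR adjusted p = 0.012), all with no overlap. Id4 was at 145, 143 and 121 CPM in SCI+FIPI and 114, 98.3 and 92.3 CPM in SCI, and its treated mice were also above the 3 Sham mice. Within the summed FPKM of the 4 Id genes, Id4 gave 15.6, 13.5 and 11.6% in SCI and 21.3, 21.1 and 17.7% in SCI+FIPI, against 29.4, 28 and 26.4% in Sham. Apart from Bmp3, each of these differences was smaller than the limit on size of 0.5, and Tgfb1 passed it in 3 of the 18 other fits, Id4 in 2 and Smad9 in 1, each of them a fit that left out a mouse. Each of the 7 also missed the limit on adjusted p in some of these fits. That held for Tgfbr2 in 1 fit (edgeR adjusted p up to 0.059), for Tgfb1 in 2 (up to 0.070), for Id4 in 2 (up to 0.071), for Eng in 2 (up to 0.090), for Smad9 in 4 (up to 0.11), for Id2 in 5 (up to 0.13) and for Tgfbr1 in 7 (up to 0.16). All 7 missed it without SCI+FIPI 2 and all but Tgfbr2 without SCI 2, and with the replicate block Tgfbr1 (edgeR adjusted p = 0.060) and Id2 (edgeR adjusted p = 0.0503) missed it as well.

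**Figure D4:**
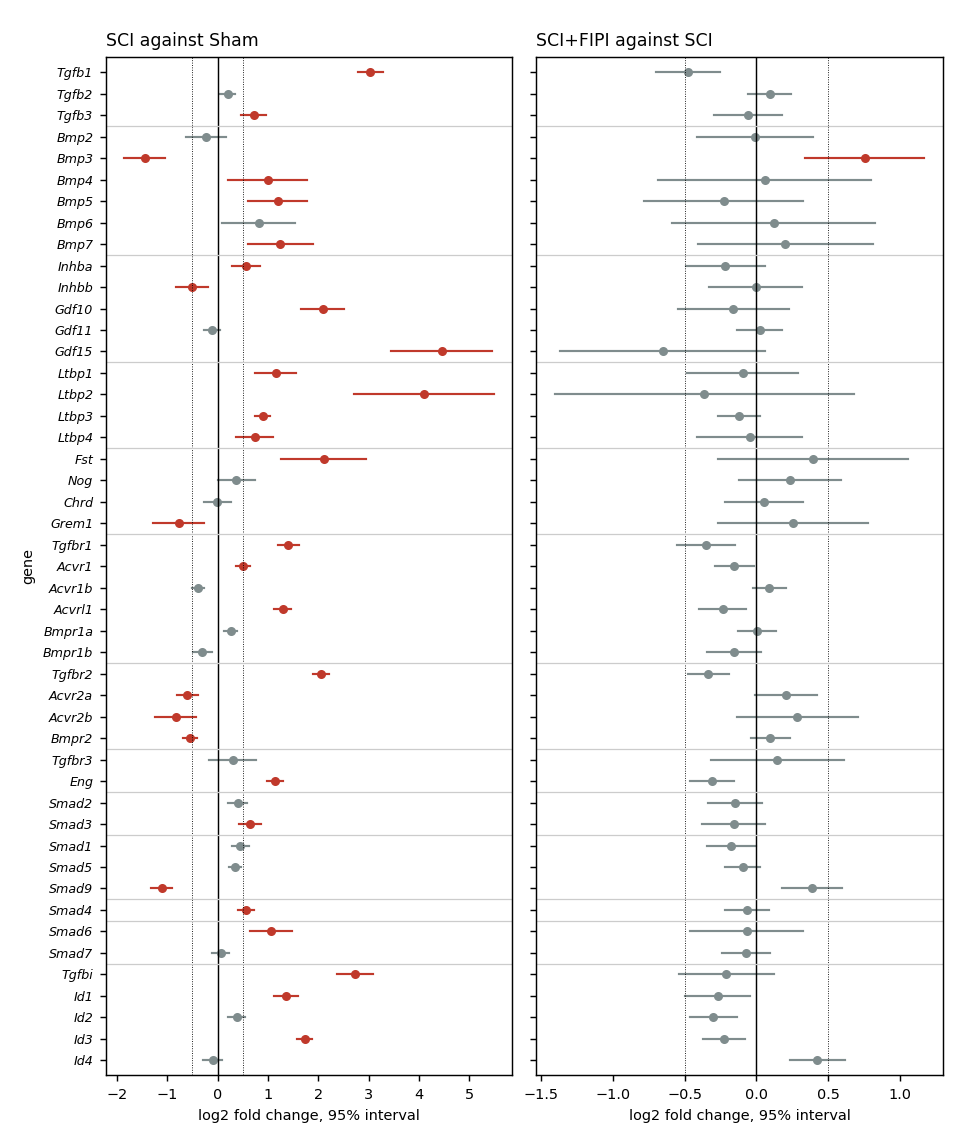
Log2 fold changes of the 47 genes with their 95% intervals (points and lines; red where called, grey where not; dotted lines at -0.5 and 0.5; the horizontal axes differ between the panels). Between SCI and Sham 31 genes are red, and between SCI+FIPI and SCI Bmp3 alone is red.

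The other 39 genes did not pass the limit on adjusted p between SCI+FIPI and SCI, and the width of their intervals differed. For Smad7 the log2 difference was -0.07 (95% interval -0.24 to 0.09), for Gdf11 0.02 (-0.13 to 0.18) and for Bmpr1a 0.01 (-0.13 to 0.14), narrow intervals around small values. For Gdf15 it was -0.65 (-1.37 to 0.06), for Ltbp2 -0.36 (-1.41 to 0.68) and for Bmp4 0.06 (-0.69 to 0.80), intervals that take in sizable differences both ways or one way. Gdf15 was at 10.02, 9.47 and 17.7 CPM in SCI and 10.8, 5.85 and 7.05 CPM in SCI+FIPI, and its groups overlapped through SCI+FIPI 1. Id3 was 1.17-fold lower with no overlap (log2 fold change -0.23 ± 0.07 (SE), edgeR adjusted p = 0.05), at the edge of the limit on adjusted p. The 4 latent TGF-beta binding proteins had values between -0.36 and -0.05, and the 4 antagonists between 0.05 and 0.39, and by edgeR none of these 8 had even an unadjusted p under 0.05 (DESeq2 called none of them).

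Of the 72 other pathway genes 2 (2.78%) were called between SCI+FIPI and SCI, a share near the 3.06% of all genes, and both were lower. Bambi, a pseudoreceptor that blocks TGF-beta and BMP signalling, measured 5.51, 4.41 and 5.43 CPM in the Sham mice, 13, 14.9 and 14.3 CPM in the SCI mice and 8.45, 8.48 and 10.2 CPM in the SCI+FIPI mice, with every treated mouse below every SCI mouse (log2 fold change -0.63 ± 0.12 (SE), edgeR adjusted p = 0.0081). Nrros was lower too (log2 fold change -0.54 ± 0.11 (SE), edgeR adjusted p = 0.011), again with no overlap. By edgeR none of the 14 tested TGF-beta targets was called or passed the limit on adjusted p, with a median log2 difference of -0.22, while 1 had an unadjusted p under 0.05 and 1 was called by DESeq2. The lowest adjusted p among them was that of the integrin gene Itga5 (log2 fold change -0.50 ± 0.15 (SE), edgeR adjusted p = 0.066). For Col1a1 the difference was -0.30 (95% interval -1.18 to 0.59).

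Markers of cell types moved between these groups as well. Of 11 neuron markers 7 were called higher in SCI+FIPI than in SCI, with sums of 3582 to 4278 CPM against 2109.7 to 3085. None of the 11 microglia and macrophage markers was called by edgeR or by DESeq2. By edgeR none passed the limit on adjusted p alone and 5 had an unadjusted p under 0.05, all 5 lower. By DESeq2 3 passed the limit on adjusted p. For 9 of the 11 (81.8%) every SCI+FIPI mouse was below every SCI mouse, while the groups did not overlap for 30.2% of all genes. The 11 markers had a median log2 difference of -0.40 and sums of 1441 to 1654 CPM in SCI+FIPI and 1783 to 2148 CPM in SCI. The 8 endothelial markers had a median of -0.22, with none called by edgeR or DESeq2. By edgeR 2 of them (25%) passed the limit on adjusted p alone, both lower, against 3.58% of all genes in that direction. By the same test 4 had an unadjusted p under 0.05, and by DESeq2 4 passed the limit on adjusted p. Every SCI+FIPI mouse was below every SCI mouse for 4 of the 8, and their sums were 415 to 514 CPM in SCI+FIPI. Of 8 fibroblast and pericyte markers 1, Rgs5 of pericytes, was called lower. The bone markers had sums of 29.5 to 41.4 CPM in SCI+FIPI, with Col10a1 called lower (14.8, 13.1 and 4.03 CPM) and Bglap, osteocalcin, called higher. The Hox genes had sums of 331 to 353 CPM, with 1 of 5, Hoxb8, called higher. The part of these markers in the values of Bmp3, Tgfb1, its receptors, Eng, Smad9 and Id4 was not tested.

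The third comparison set SCI+FIPI against Sham and shares its mice with the other comparisons, so its values are given side by side with theirs and not as separate evidence. Of the 47 genes 26 (55.3%) were called, 22 higher and 4 lower, against 38.1% of all genes, of which 21.2% were called higher and 17.0% lower. Tgfb1 was 5.87-fold higher in SCI+FIPI than in Sham and 8.18-fold higher in SCI than in Sham. Tgfbr2 was 3.29-fold and 4.16-fold higher, Id3 2.83-fold and 3.31-fold, and Tgfbi 5.72-fold and 6.62-fold, in the same order. Smad9 was 1.65-fold and 2.16-fold lower. The log2 difference of Id2 was 0.08 between SCI+FIPI and Sham and 0.38 between SCI and Sham, and that of Id4 was 0.33 and -0.10. The BMP ligands Bmp4, Bmp6 and Bmp7 were each highest in SCI+FIPI 3, at 22.2, 62.4 and 45.8 CPM. Bmp6 was called in this comparison at a log2 fold change of 0.93 (edgeR adjusted p = 0.035), a call lost in 9 of 18 other fits, and Nog at 0.60 (edgeR adjusted p = 0.0073), a call lost with GC and length offsets, with or without the replicate block, and without SCI+FIPI 3 (edgeR adjusted p = 0.052 to 0.078).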

How the data were processed

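Spinal cord RNA of 9 mice, 3 per group, was analysed from 1 table of gene counts, the whole-number read counts per Ensembl gene that the authors deposited without scaling. Poly-A RNA had been sequenced on an Illumina instrument. The submitters' processing notes name R 4.2.3 and the build GRCm38, and the aligner, the counter, the annotation and the counting by strand are not given in the sources used here. Groups were taken from the labels. Nothing pairs the mice, and samples with the same replicate number did not deviate together (correlations -0.0726 to 0.108 for equal and -0.108 to 0.0889 for unequal numbers).

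Genes were filtered with filterByExpr (18699 of 52550 kept), scaled by TMM (factors 0.985 to 1.02) and fitted with edgeR 4.0.16 by its robust quasi-likelihood test in R 4.3.3, with 1 mean per group over all 9 mice, so that the spread was shared among the groups. P-values were adjusted by Benjamini-Hochberg over all genes, and a gene was called where that p was under 0.05 and its log2 fold change was 0.5 or more in either direction. The standard error is the log2 fold change divided by the square root of its F value, and intervals are at 95%. P-values set the difference between group means against the spread between these mice. The biological coefficient of variation was 9.3%. Counts of same-group mice differed by more than sampling noise (chi-square per gene 6.79 to 13.3), so no mouse was counted as a repeat of another.

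Lengths, positions and overlaps came from GENCODE M21 on GRCm38, which held 52403 (99.7%) of the identifiers. FPKM was computed here from the TMM-scaled CPM and the exonic length of each gene. The script was tested on simulated counts. The 47 genes and the other lists were chosen with earlier results of these data known. Values for every mouse are given for the genes called between SCI+FIPI and SCI, for Tgfb1, Tgfb2, Tgfb3 and the Id genes, and in each role for the 2 genes (3 in roles of 5 or more) with the greatest called difference between SCI and Sham. Of the other pathway genes, the 6 greatest rises and 4 greatest falls among those called, and all called under FIPI, are named, except 1 that is not reported here. Atoh8, Hes1, Thbs1, Itgb5, Pcsk6, Itga5, Ngp and the single markers, and the values by mouse of Bmp4, Bmpr2, Acvr2a and Smad7, were added after they were seen. DESeq2 1.42.0, other scalings and filters, a replicate block, offsets for GC content and length, fits of 2 groups only and fits without each mouse were the alternatives.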

Additional observations from a re-analysis of the deposited data

How the results depend on the processing

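Between SCI and Sham, 24 of the 31 called genes were called in every fit that tested them. Of these, Gdf15, Ltbp2 and Fst had too few counts to enter the fit that asks for 10 counts in every mouse. The number called ranged from 28 to 32, with 7647 to 9151 of all genes called. With no limit on the fold change 39 of the 47 genes passed, and 12315 of all genes. The calls of Acvr1, Acvr2a, Bmp4, Bmpr2, Inhba, Inhbb and Smad4 were lost in some fits, and Bmp6, Smad1 and Smad2 were called in some. Smad7, not called, stood at -0.073 with GC and length offsets, with or without the replicate block. Between SCI+FIPI and SCI, the count of all genes called was 572, against 1800 with no limit on the fold change and 189 (without SCI+FIPI 2) to 1038 (without SCI 1) when a mouse was left out, with 341 without SCI 2 and 240 without SCI 3. Among the 47 genes the count of 1 became 2 with no filter on low counts, where Gdf15 was added at -0.66 (edgeR adjusted p = 0.041), 8 with no limit on the fold change and 0 to 4 when a mouse was left out. It was 0 without SCI 2, SCI 3 or SCI+FIPI 2, 4 without SCI 1 and 2 without SCI+FIPI 3. With a mouse left out, the log2 difference of Tgfb3 ranged from -0.19 to 0.083 (without SCI+FIPI 1), that of Bmp7 from -0.11 (without SCI+FIPI 3) to 0.35 and that of Inhbb from -0.10 to 0.16 (without SCI 2), none of them called. Between SCI+FIPI and Sham, 21 of 26 calls were kept in every fit that tested the gene. Gdf15, Ltbp2 and Fst were again absent from the fit that asks for 10 counts in every mouse. With no limit on the fold change 11060 of all genes and 40 of the 47 passed in this comparison. The log2 difference of Id2 there, not called, ranged from -0.00049 (without Sham 1) to 0.13 (without Sham 2). The cause of these changes was not tested.

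The replicate numbers do not pair the mice. With the replicate block, 8744 genes and 32 of the 47 were called between SCI and Sham, 555 and 1 between SCI+FIPI and SCI, and 7115 and 26 between SCI+FIPI and Sham. With 3 mice per group, genes of few counts such as Fst and Ltbp2 have wide intervals.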
